A study of Mus musculus with 50 samples.

Results

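Low-share C>A substitutions were compared between 9 mesenteric lymph node tumours titled 1505, 1510, 1559, 1561, 1562, 1563, 1564, 1565 and 1568 and 7 tumours titled 1569, 1571, 1587, 1588, 1589, 1590 and 1592. Together they are 16 of the 44 tumours with variant calls used here, from a series that labels 45 tumours and 5 kidneys of WT Balb/c mice. All carry the genotype IL6Myc, a transgenic mouse model of multiple myeloma, and the labels give malignant plasma cells as the cell type of every tumour, so the genotype, the tissue and the cell type were the same in both groups. The labels give no age, treatment or preparation date. Each tumour has its own title number and was taken to come from its own mouse. No normal DNA of the same mice was used here. DNA calls carry no expression markers, so the cell type could not be checked against them. The groups differ in the labels only by the title number. They were chosen from the measured C>A calls, so every value of private SNVs below is a description with no test.

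A private SNV is a single-base change called in 1 of the 44 tumours, and the read share is the percent of a site's reads with the changed base. Changes were written from the pyrimidine base, so that C>A includes G>T on the opposite strand, which gives 6 classes. C>A is the change left when adenine is paired with an oxidised guanine. Oxidised guanine forms in living cells, where the glycosylases Ogg1 and Mutyh act against it, and also in DNA that has been extracted and sheared. A change present in few cells, and a change made in a few DNA molecules, both give a low read share. Plasma cells also carry changes from somatic hypermutation, in which the enzyme AID deaminates cytosine at the antibody loci and at some other genes.

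Below a read share of 20%, tumour 1505 held 47 private C>A SNVs, tumour 1510 held 105, tumour 1559 held 81, tumour 1561 held 90, tumour 1562 held 88, tumour 1563 held 87, tumour 1564 held 88, tumour 1565 held 65 and tumour 1568 held 87. In the other group, tumour 1569 held 8, tumour 1571 held 12, tumour 1587 held 15, tumour 1588 held 13, tumour 1589 held 6, tumour 1590 held 14 and tumour 1592 held 10. The lowest of the 9 tumours, 1505, lay far above the highest of the 7, 1587, and the groups did not overlap. The means were 82 ± 16.7 in tumours 1505-1568 (SD, n = 9) and 11.1 ± 3.29 in tumours 1569-1592 (SD, n = 7), a ratio of 7.36. In all, 738 such SNVs were called in tumours 1505-1568 and 78 in tumours 1569-1592.

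As a share of all private SNVs below 20%, C>A made up 41.1% ± 3.83 in tumours 1505-1568 (SD, n = 9), with a range of 36.1 to 48.2%. The share was 12.1% ± 5.17 in tumours 1569-1592 (SD, n = 7), with a range of 8.33 to 22.8%. The highest of the 9 was tumour 1559, where 81 of 168 such SNVs were C>A (exact Clopper-Pearson 95% interval 40.5 to 56.0%). The lowest was tumour 1565, with 65 of 180 (29.1 to 43.6%). Tumour 1588 was the highest of the 7, with 13 of 57 (12.7 to 35.8%), and the other 6 lay at 13.6% or less. These intervals cover counting error only.

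**Figure D1:**
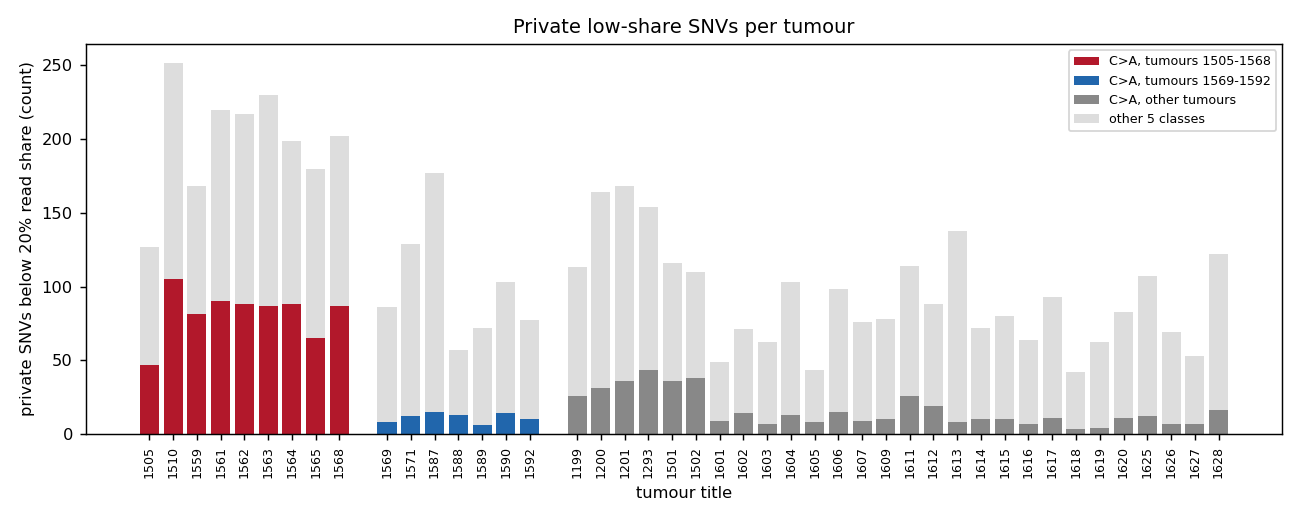
Private SNVs below 20% read share in each of the 44 tumours (vertical axis, count), by tumour title (horizontal axis). The coloured part of each bar is C>A and the pale part the other 5 classes: C>A counts run from 47 to 105 in tumours 1505-1568, from 6 to 15 in tumours 1569-1592 and from 3 to 43 in the other 28 tumours.

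The break between the groups fell between adjacent titles at one end and was gradual at the other. Tumour 1568 had 43.1% C>A and tumour 1569 had 9.3%. At the lower end, tumour 1505 held 47 low-share C>A SNVs (37.0%), and the tumours just outside, 1501 and 1502, held 36 (31.0%) and 38 (34.5%). The 6 tumours with titles below 1505 held 26 to 43, with a median of 36, and the 22 with titles above 1592 held 3 to 26, with a median of 10. Tumour 1601, next after 1592, held 9. The title number is the only label that moves with these counts. Preparation, sequencing run and cohort cannot be told apart from it, and their part was not tested.

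The reference sequence around some of these sites is shown because C>A changes are often described by their neighbouring bases. It could be read only where a site lay in a RefSeq promoter window (GRCm38.p6, from 250 bases before to 50 after a gene start). Of the private SNVs below 20% in all 44 tumours, 75 did, and in all 75 the deposited reference base equalled the base of the window. Tumours 1505-1568 had 14 C>A sites there, tumours 1569-1592 had 0 and the other tumours had 4. Their low C>A SNVs over the whole genome numbered 738, 78 and 446, so nothing is read from the 0. Sites of the other classes numbered 8 in tumours 1505-1568, 8 in tumours 1569-1592 and 41 in the other tumours. For the 11 of the 14 with 10 window bases on both sides, the sequence is given 5′ to 3′ on the strand that holds the C, and the capital marks the C that was read as A. They are named by the gene whose window holds the site.
Gm7609, chr1:85199453-85199473, plus strand, tumour 1565: cctttctcctCcctgctacaa
Numb, chr12:83842437-83842457, minus strand, tumour 1563: tcgtgtgggcCctcagggttt
Akr1e1, chr13:4609259-4609279, minus strand, tumour 1563: actatgctctCagccaatcag
Gm41074, chr13:114456301-114456321, minus strand, tumour 1563: gcgtcttgccCtcagcgttcc
2410017I17Rik, chr17:36145019-36145039, minus strand, tumour 1568: gctgatcaccCgacgcaagtg
Romo1, chr2:156144197-156144217, plus strand, tumour 1510: ggaagcgatcCcacggaccgc
Syt11, chr3:88772610-88772630, minus strand, tumour 1568: gaagagcttcCggaatctttc
Spaca1, chr4:34050039-34050059, minus strand, tumour 1565: agcagcctctCctccagagcc
Cxcl1, chr5:90891103-90891123, minus strand, tumour 1510: tgctccactcCcaaggattag
Krtdap, chr7:30787787-30787807, plus strand, tumour 1565: tcccggagccCcaggggtggg
Gm51591, chr8:55366065-55366085, plus strand, tumour 1561: ggcttccatgCctgtgtgtgg

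Over all 14 sites the base before the C was C in 7, T in 4, G in 3 and A in 0, and the base after it was C in 8, G in 3, T in 2 and A in 1. Over every C of all promoter windows, both strands counted, the base before was C in 31.0%, G in 27.7%, T in 23.1% and A in 18.2%, and the base after was C in 31.0%, T in 28.1%, A in 25.4% and G in 15.5%. With 14 sites from a small part of the genome, no order of contexts was read from these counts.

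C>A was the 1 class of 6 whose low-share counts did not overlap between the groups, which is 16.7% of the classes. T>G stood next, with 43 ± 9.71 per tumour in tumours 1505-1568 (SD, n = 9) and 16.6 ± 11 in tumours 1569-1592 (SD, n = 7), a ratio of 2.59. T>G counts overlapped. They ran from 24 to 55 in the 9 tumours and from 6 to 36 in the 7, where tumours 1571 and 1587 held 24 and 36. C>T, the class left by cytosine deamination, averaged 32.7 ± 6.18 in tumours 1505-1568 and 31.7 ± 7.09 in tumours 1569-1592 (SD, n = 9 and 7). T>C averaged 25.7 ± 9.72 in tumours 1505-1568 and 27 ± 17.3 in tumours 1569-1592. C>G averaged 8.22 ± 3.35 in tumours 1505-1568 and 5.29 ± 2.43 in tumours 1569-1592, and T>A 7.89 ± 3.82 in tumours 1505-1568 and 8.43 ± 6 in tumours 1569-1592. Leaving out C>A, the low-share total was 117 ± 22.9 in tumours 1505-1568 and 89 ± 39.3 in tumours 1569-1592, and these totals overlapped. As a share of low-share SNVs, C>T also did not overlap, at 16.6% ± 2.95 in tumours 1505-1568 and 33.8% ± 7.8 in tumours 1569-1592, while its counts lay close together.

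**Figure D2:**
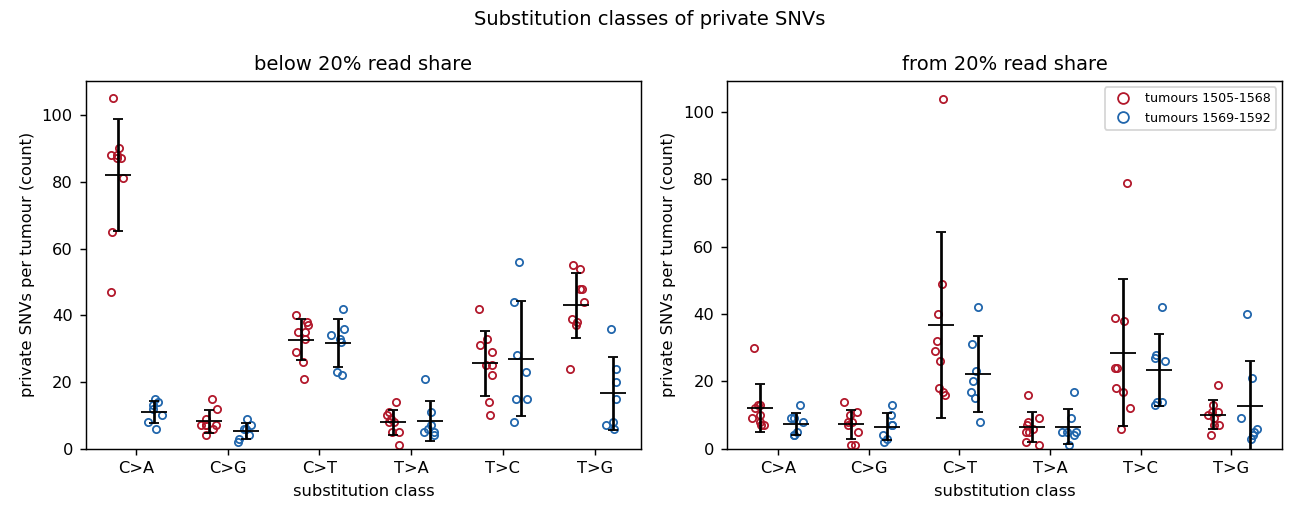
Private SNVs per tumour (vertical axes, count) by substitution class (horizontal axes), below 20% read share on the left and from 20% on the right. Open circles are tumours, bars the mean and SD over 9 tumours 1505-1568 (red) and 7 tumours 1569-1592 (blue): below 20% the C>A means are 82 and 11.1, and from 20% they are 12.1 and 7.43.

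From a read share of 20% upward, the groups overlapped in C>A and lay closer together than below it. The counts averaged 12.1 ± 7.11 per tumour in tumours 1505-1568 (SD, n = 9), with a range of 7 to 30, and 7.43 ± 3.31 in tumours 1569-1592 (SD, n = 7), with a range of 4 to 13. The C>A share was 13.3% ± 5.56 in tumours 1505-1568 and 10.4% ± 4.47 in tumours 1569-1592. No class of the 6 was free of overlap there (0.0% of the classes). Tumour 1561 held the 30 and tumour 1587 the 13, and these tumours also had the most private SNVs from 20% in their groups, 262 and 167.

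By read share, the C>A part of private SNVs in tumours 1505-1568 was 44.3% below 5% (113 of 255 SNVs), 41.8% from 5 to 10%, 41.0% from 10 to 15% and 38.7% from 15 to 20% (179 of 462). It was 21.9% from 20 to 30% (54 of 247, exact interval 16.9 to 27.5%) and 7.3% from 30 to 40% (10 of 137, 3.56 to 13.01%). In tumours 1569-1592 the part was 6.54% below 5% (7 of 107), 12.02%, 14.3% and 8.38% in the next 3 steps, 11.7% from 20 to 30% (24 of 205, 7.65 to 16.9%) and 4.67% from 30 to 40% (5 of 107). The height in the 9 tumours thus ran over the whole range below 20% and, at a lower level, up to 30%. From 40 to 60%, C>A made up 8.14% in tumours 1505-1568, 10.2% in tumours 1569-1592 and 9.03% in the other tumours.

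**Figure D3:**
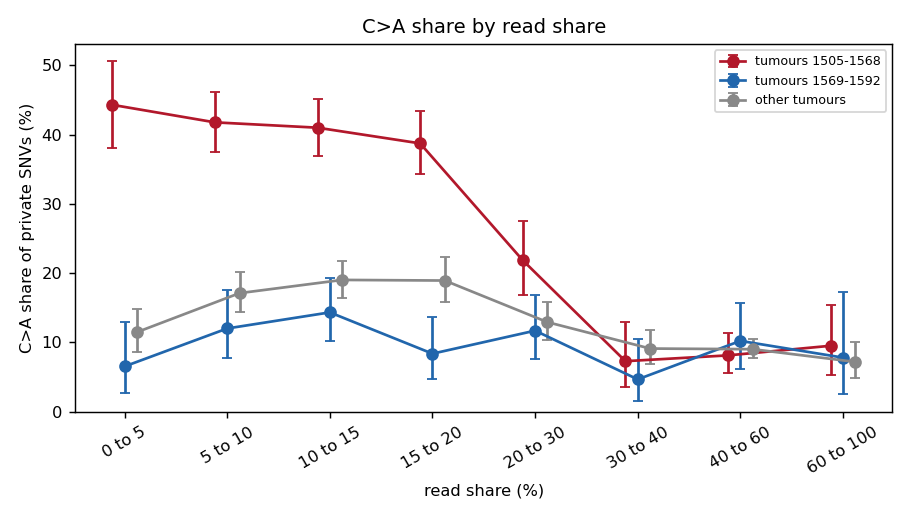
C>A share of private SNVs (vertical axis, percent) by read share (horizontal axis, percent). Points pool the SNVs of a group, and bars are exact 95% intervals, which cover counting error only: tumours 1505-1568 lie between 38.7 and 44.3% in the 4 steps below 20% and at 7.3% from 30 to 40%, and tumours 1569-1592 lie between 4.67 and 14.3% throughout.

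The threshold of 20% had 74 C>A SNVs of tumours 1505-1568 just inside it, from 18 to 20%, and 26 just outside, from 20 to 22%. Tumours 1569-1592 had 4 and 12. The median read share of the low C>A SNVs was 10.5% in tumours 1505-1568 (quartiles 6.25 and 14.3%) and 11.1% in tumours 1569-1592 (quartiles 8.06 and 13.8%).

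The low C>A SNVs were scattered over the genome. In tumours 1505-1568 they numbered from 22 on chromosomes 19 and X to 59 on chromosome 2, with 1 on each of 3 contigs outside the assembled chromosomes. Of the 738, 5 lay in the antibody loci. In tumours 1569-1592, 2 of 78 did. Within a tumour they rarely stood together. Tumour 1564 had 2 neighbouring pairs within 100 bases, tumours 1505 and 1565 had 1 each, and the other 6 of the 9 tumours had 0.

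Introns held the largest part of the low C>A SNVs in both groups. Of the 738 low C>A SNVs of tumours 1505-1568, 436 were intronic (59.1%), 119 missense, 75 intergenic, 27 synonymous, 19 in a 3′ UTR, 18 in a 5′ UTR, 11 upstream of a gene and 9 stop gained. Of the 78 in tumours 1569-1592, 34 were intronic (43.6%), 21 intergenic, 15 missense, 3 synonymous and 2 stop gained. The intronic share of the other classes was also higher in tumours 1505-1568. It was 44.3% there (468 of 1057) and 36.8% in tumours 1569-1592 (229 of 623). Seen the other way, C>A made up 48.2% of the low-share intronic SNVs in tumours 1505-1568 (436 of 904, exact interval 44.9 to 51.5%) and 12.9% in tumours 1569-1592 (34 of 263, 9.12 to 17.6%). It made up 42.3% of low-share missense SNVs in tumours 1505-1568 (119 of 281) and 12.2% in tumours 1569-1592 (15 of 123). Among intergenic SNVs the shares were closer, 22.4% in tumours 1505-1568 (75 of 335, 18.04 to 27.2%) and 9.95% in tumours 1569-1592 (21 of 211, 6.27 to 14.8%). In 5′ UTRs, which are often rich in C and G, 18 of 31 low-share SNVs of tumours 1505-1568 were C>A (58.1%, 39.1 to 75.5%), against 0 of 11 in tumours 1569-1592, where the exact interval reaches 28.5%.

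**Figure D4:**
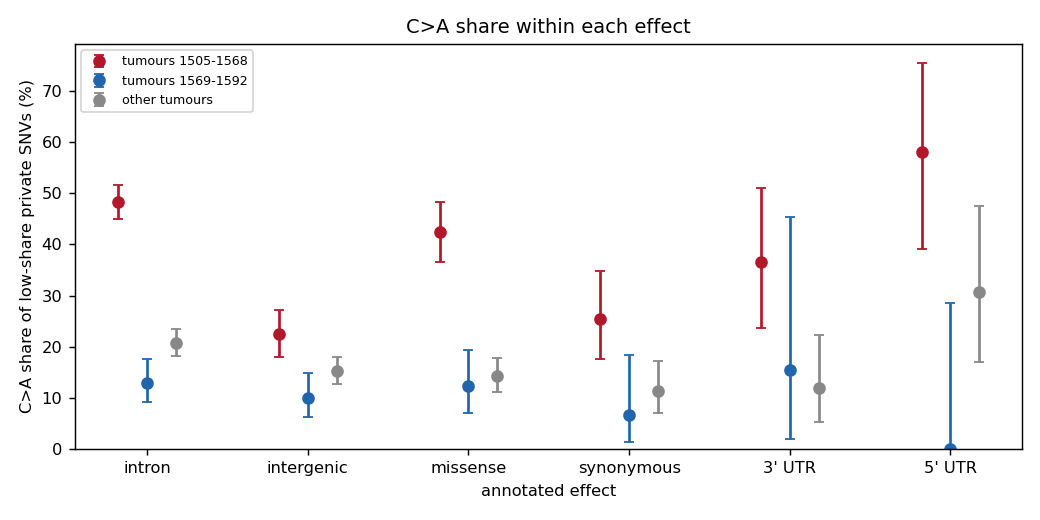
C>A share of private SNVs below 20% read share (vertical axis, percent) within 6 annotated effects (horizontal axis), leaving out stop-gained and upstream SNVs, of which either group had 17 or fewer. Points pool the SNVs of a group and bars are exact 95% intervals: over these 6 effects tumours 1505-1568 run from 22.4% for intergenic to 58.1% for 5′ UTR SNVs, and tumours 1569-1592 from 0% for 5′ UTR to 15.4% for 3′ UTR SNVs.

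Read share also differed by place. In tumours 1505-1568 the median read share of low C>A SNVs was 5.66% in coding sequence (155 SNVs) and 12.5% in introns (436 SNVs), and for the other classes it was 8.54% and 12.5%. In tumours 1569-1592 it was 10.8% in coding sequence (20 SNVs) and 10% in introns (34 SNVs). Read depth is unknown in these data, and its part in this difference was not tested. With the threshold at 10% in place of 20%, the intronic share of C>A averaged 37.6% in tumours 1505-1568 and 46.4% in tumours 1569-1592, the reverse of its order at 20%.

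The change was written on the coding strand of a gene for 657 low C>A SNVs of tumours 1505-1568. It read C>A in 331 and G>T in 326 (49.6% G>T, exact interval 45.7 to 53.5%, counting error only). Over tumours the G>T share was 49.8% ± 4.28 (SD, n = 9), with a range of 42.1 to 55.8%. In tumours 1569-1592 it was 25 of 56 (44.6%, 31.3 to 58.5%), with tumour values of 22.2 to 75% on 4 to 14 SNVs each. On the plus strand of the genome the reference base was C, not G, in 57.3% of the low C>A SNVs of tumours 1505-1568 (423 of 738, 53.7 to 60.9%), in 57.7% of those of tumours 1569-1592 (45 of 78, 46.0 to 68.8%) and in 60.8% of those of the other tumours (271 of 446, 56.1 to 65.3%). These intervals pool the SNVs of a group and cover counting error only. Over tumours the plus-strand C share was 57.8% ± 7.11 in tumours 1505-1568 (SD, n = 9), with a range of 50.8 to 70.2%. It was 60.3% ± 13.7 in tumours 1569-1592 (SD, n = 7), with a range of 41.7 to 83.3%. Other classes also lay away from 50% in places. In tumours 1505-1568 the plus-strand pyrimidine share of low-share SNVs ran from 31.1% for C>G (23 of 74, 20.8 to 42.9%) to the 57.3% of C>A, with T>C at 44.6%, T>G at 48.1%, C>T at 49.3% and T>A at 50.7%. In tumours 1569-1592 it ran from 43.9% for T>C to 62.7% for T>A.

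Few genes were hit in more than 1 tumour. The 663 low C>A SNVs with a gene name in tumours 1505-1568 fell in 679 genes, as some sites lie in overlapping genes. Of these, 16 genes were hit in 2 tumours and none in 3. They include the clathrin heavy chain gene Cltc, the dynein heavy chain gene Dync1h1, the calcium release channel gene Itpr1, the kinase gene Rock1 and the mechanically gated channel gene Piezo2. The 57 with a gene name in tumours 1569-1592 fell in 58 genes, none of them in 2 tumours. Many of these changes were intronic, as in Dync1h1 at 12.5 and 13.33% read share and in Rock1 at 18.18% in both tumours.

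Protein-altering private C>A SNVs numbered 136 in tumours 1505-1568 and 28 in tumours 1569-1592. In tumours 1505-1568, 131 of the 136 lay below 20% and 5 from 20%, with a median read share of 5.78%. In tumours 1569-1592, 17 lay below 20% and 11 from 20%, with a median of 13.6%. Protein-altering changes below 20% were thus 131 of 738 low C>A SNVs in tumours 1505-1568 and 17 of 78 in tumours 1569-1592. Missense changes alone made up 16.1% of the low C>A SNVs in tumours 1505-1568 (exact interval 13.5 to 18.98%). They made up 19.2% in tumours 1569-1592 (11.2 to 29.7%, counting error only). The larger count in the 9 tumours did not come with a larger missense share of C>A. In the 9 tumours the residue changes called most often below 20%, among 117 with a written residue, were Asp to Tyr in 9 and Gly to Val and Pro to Thr in 8 each. The missense to synonymous ratio of low C>A SNVs was 4.41 in tumours 1505-1568 (119 and 27), against 2.05 for the other classes in the same tumours. It was 5 in tumours 1569-1592 (15 and 3), against 2.57 for the other classes (108 and 42). In the other tumours it was 3.26 (62 and 19), against 2.53 (374 and 148), so C>A had the higher ratio in every group.

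Stop codons written by C>A numbered 9 in tumours 1505-1568, in 6 of the 9 tumours, all between 4.21 and 7.5% read share. They were p.Ser1075Ter in Ssfa2, p.Ser372Ter in the nuclear factor I gene Nfix, p.Glu444Ter in Gm12695, p.Ser66Ter in Efcab11, p.Glu106Ter in Stk19, a change with no protein notation in Fam92b, p.Cys232Ter in 4933405O20Rik, p.Glu51Ter in the rotatin gene Rttn and p.Glu946Ter in the receptor phosphatase gene Ptprm. On the coding strand 5 read C>A and 4 read G>T. Tumours 1569-1592 had 2, p.Glu350Ter in Myb, a transcription factor of blood cell progenitors, at 15% in tumour 1590, and p.Tyr86Ter in the homeobox gene Hoxb8 at 7.14% in tumour 1569. C>A made up 9 of 11 low-share stop-gained SNVs in tumours 1505-1568, 2 of 4 in tumours 1569-1592 and 9 of 15 in the other tumours. A large part of C>A among stops was thus not particular to the 9 tumours.

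The protein-altering C>A SNVs with the highest read shares differed in level between the groups. In tumours 1505-1568 they were p.Pro337Gln in Pot1b, a telomere-end binding gene, at 100% in tumour 1564, p.Glu116Asp in Myc at 25.76% and p.Gln302Lys in Akap2 at 25% in tumour 1561, p.Ala336Ser in the ethanolamine kinase gene Etnk2 at 25% in tumour 1563, and 1 change in a row shared by BC090627 and Chkb at 21.43% in tumour 1562. That last change is annotated as missense but written on non-coding transcripts. In tumours 1569-1592 they were p.Gly352Cys in Acat3 at 56.82% in tumour 1590, p.Thr1307Asn in the axon guidance receptor gene Robo2 at 53.33%, p.Glu321Asp in Arhgap4 at 45.83% and p.Arg445Leu in the diacylglycerol kinase gene Dgkb at 45.65%, all 3 in tumour 1587, and 1 in the RNA-binding protein gene Tardbp at 44.44% in tumour 1571, again written on a non-coding transcript. With no normal DNA of the same mice used here, inherited and acquired changes cannot be told apart.

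Myc was the 1 gene with a protein-altering private C>A SNV in 2 of the 16 tumours, p.Glu116Asp in tumour 1561 and p.Gln49His at 40.86% in tumour 1587, 1 in each group. Lists of genes were read for the same kind of change. Of 21896 protein-coding genes in RefSeq, 137 (0.626%) had one in tumours 1505-1568 and 28 (0.128%) in tumours 1569-1592, so lists of this size would hold few or none at that rate, and nothing is read from a count of 0. The 16 genes that repair oxidised guanine, among them the glycosylase genes Ogg1 and Mutyh and the nucleotide pool hydrolase gene Nudt1, had 0 in either group. The 14 genes on a chosen list of DNA polymerase and mismatch repair genes also had 0 in either group. That list does not hold every DNA polymerase gene. Polq, outside it, had p.Pro1677His at 3.45% in tumour 1510. Of 14 genes of defence against oxidative stress, 0 had one in tumours 1505-1568 and 1 had one in tumours 1569-1592, the thioredoxin reductase gene Txnrd1, with p.Gly117Val at 6.15% in tumour 1571. Among 27 myeloma gene symbols, in which Fam46c and Tent5c name the same gene, and 20 AID off-target genes, only Myc had one. Coverage of these genes is unknown.

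Among SNVs that other tumours also carried, low-share C>A calls were about as many in both groups. Below 20% read share, SNVs called in 2 or more tumours included 13.9 ± 4.28 C>A calls per tumour in tumours 1505-1568 (SD, n = 9), with a range of 6 to 18, and 13.3 ± 3.35 in tumours 1569-1592 (SD, n = 7), with a range of 10 to 18. They were 11.8% ± 3 of such SNVs in tumours 1505-1568, 11.2% ± 3.26 in tumours 1569-1592 and 12.3% ± 3.18 in the other tumours (SD, n = 28). Of 14 low-share SNVs found in exactly 2 tumours, both of the 9, 1 was C>A. No test was run on these values.

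Measures that did not choose the groups were tested by an exact permutation test over the 16 tumours, two-sided, with Benjamini-Hochberg adjustment over 7 measures. Variants shared with at least 1 other tumour were called more often in tumours 1505-1568, at 4571 ± 638 per tumour (SD, n = 9), with a range of 3702 to 5296, than in tumours 1569-1592, at 3096 ± 1063 (SD, n = 7), with a range of 1740 to 4654. The difference was 1475 calls (exact permutation p = 0.00542, adjusted p = 0.0379), and 9 of the 9 tumours lay above the median of the 7. The groups overlapped, however, around the titles where low-share C>A fell. Tumours 1564 and 1568 held 3702 and 3737 calls, and tumours 1569, 1571 and 1587 held 3927, 4654 and 3821. The lowest counts of the 7 were those of tumours 1588, 1589, 1590 and 1592, at 2090, 1740, 2724 and 2719. Shared calls thus did not drop between tumours 1568 and 1569, where the C>A share did. High counts were not particular to the 9 tumours. The other tumours averaged 2734.5 ± 1064 (SD, n = 28), with a range of 1596 to 5435, and tumours 1501 and 1502 held 5294 and 5435. Leaving out 1 tumour at a time took the adjusted p over 0.05 for 9 of the 16 tumours, 1505, 1510, 1559, 1561 and 1565 of the 9 and 1588, 1589, 1590 and 1592 of the 7. It then lay between 0.0587 and 0.0867.

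By spread, variants in 2 to 5 tumours averaged 547 ± 238 calls in tumours 1505-1568 and 310 ± 167 in tumours 1569-1592 (SD, n = 9 and 7). Those in 6 to 22 tumours averaged 2647 ± 492 calls in tumours 1505-1568 and 1407 ± 868 in tumours 1569-1592, and those in over 22 tumours averaged 1378 ± 53.9 in tumours 1505-1568 and 1379 ± 58.8 in tumours 1569-1592 (SD, n = 9 and 7). By chromosome the largest gap was on chromosome 3, at 876 ± 476 calls in tumours 1505-1568 and 381 ± 467 in tumours 1569-1592, and both groups held tumours with under 20 calls there. Some chromosomes thus held very few or very many calls, depending on the tumour. Chromosome 2 had 19 to 1335 calls in tumours 1505-1568 and 21 to 1267 in tumours 1569-1592. Chromosome 16 had 6 to 614 in tumours 1505-1568 and 5 to 658 in tumours 1569-1592. On chromosome 11, tumours 1505-1568 had 10 to 591 calls, with a median of 200, and tumours 1569-1592 had 11 to 19.

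**Figure D5:**
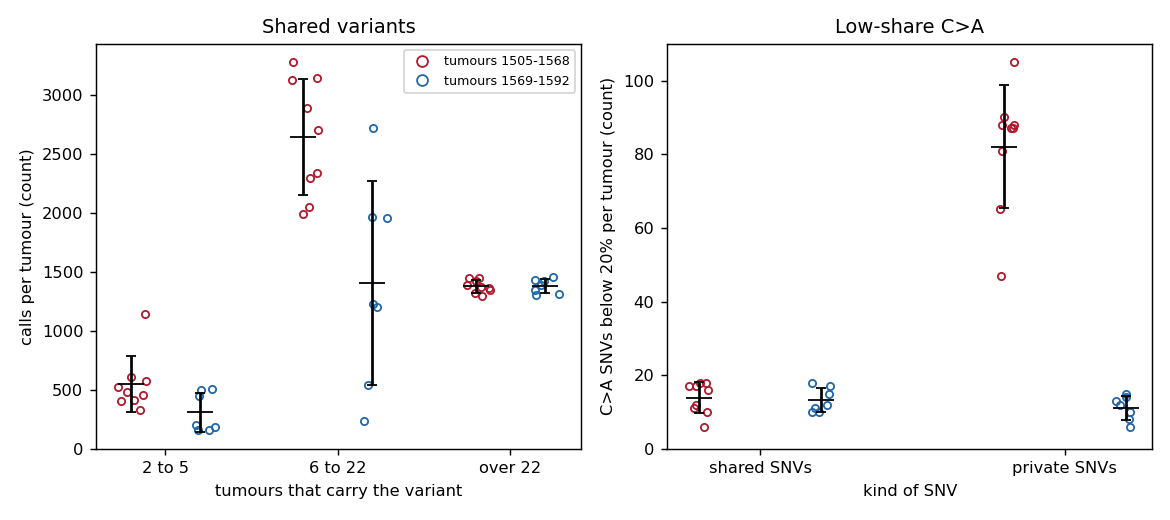
On the left, calls per tumour (vertical axis, count) of variants carried by 2 to 5, 6 to 22 and over 22 tumours (horizontal axis). On the right, C>A SNVs below 20% read share per tumour (vertical axis, count) among shared and private SNVs (horizontal axis): the means are 13.9 in tumours 1505-1568 (red) and 13.3 in tumours 1569-1592 (blue) for shared SNVs, and 82 and 11.1 for private ones. Circles are tumours and bars the mean and SD.

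The other 6 measures did not pass, which does not show that the groups were alike in them. The C>A share of SNVs in over 5 tumours was 8.65% ± 0.271 in tumours 1505-1568 and 8.85% ± 0.321 in tumours 1569-1592 (exact permutation test, adjusted p = 0.305), and their transition share was 72.2% ± 0.266 in tumours 1505-1568 and 72.3% ± 0.326 in tumours 1569-1592 (adjusted p = 0.772). Their missense to synonymous ratio was 0.514 ± 0.0177 in tumours 1505-1568 and 0.491 ± 0.0302 in tumours 1569-1592 (exact permutation test, adjusted p = 0.28). Private insertions and deletions numbered 55 ± 19.4 in tumours 1505-1568 and 66.6 ± 23.1 in tumours 1569-1592 (exact permutation test, adjusted p = 0.351). Read shares of SNVs in over 22 tumours had medians of 48.5% ± 0.71 in tumours 1505-1568 and 49.2% ± 1.21 in tumours 1569-1592 (exact permutation test, adjusted p = 0.305). Their SD within a tumour, taken between 25 and 75% and the nearest stand-in for depth here, was 9.37 ± 0.282 percentage points in tumours 1505-1568 and 9.62 ± 0.365 in tumours 1569-1592 (adjusted p = 0.305 by the same exact test).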

How the data were processed

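Exome DNA of IL6Myc tumours was captured with an Agilent mouse exon design, per the labels' protocols, and variants were called with GATK on mm10, per the submitters' processing notes. Aligner, filters and annotation tool were not given in the sources used here. A deposited table of 25823 rows gives a percent of reads per tumour, read as the alternate-read share from its values, and a deposited count of tumours per row. Depth per sample is unknown. The 199 rows with several alternate alleles repeat other rows and were left out, which left 25624, and 1 blank cell was taken as no call. Columns of 44 tumours were matched by title. A further labelled tumour and all 5 kidneys are not used here.

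Shares and counts were taken per tumour and summarised as mean and SD, with scipy 1.17.1 for exact intervals (95%) and for permutation tests over all 11440 splits. Scripts were tested on simulated data. The members and gene lists were chosen with earlier results of these data known. Named genes are those with a protein-altering private C>A SNV in 2 of the 16 tumours, those with a C>A stop, the 5 with the highest read share per group, and list members. Polq and the named 2-tumour genes outside this rule were chosen after their values were seen. Symbols are as deposited. Alternatives were other thresholds, carrier limits, coding SNVs only, and leaving out antibody loci, chromosomes or single tumours. Base contexts outside promoter windows were not read. Promoter sequences are from RefSeq (GRCm38.p6).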

Additional observations from a re-analysis of the deposited data

Results flagged for a closer look

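Dixon's gap rule was applied to 24 sets, 12 measures in 2 groups, and 4 tumours stood apart from the rest of their group. Chance alone marks about 1 in 20 sets. Tumour 1588 had a C>A share of 22.8% among its private SNVs below 20%, and the next of the 7 tumours had 13.6%. Tumour 1563 had 69.0% of its low C>A SNVs in introns, against 61.7% in the next of the 9. Tumour 1561 had 102 private insertions and deletions, against 64 in the next of the 9. Tumour 1562 had a missense to synonymous ratio of 0.554 among SNVs in over 5 tumours, against 0.521 in the next of the 9.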

How the results depend on the processing

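Differences are tumours 1505-1568 minus tumours 1569-1592. The gap in the low-share C>A share, 28.95 percentage points, stayed between 28.1 and 30.7 without any 1 tumour. A threshold of 10% gave differences of 16.98 points in the C>A share above it, 31.9 low C>A SNVs per tumour and -8.81 points in their intronic share. A threshold of 30% gave -0.885 points in the C>A share above it and -0.661 in the coding-strand G>T share. Coding SNVs alone gave 14.4 low C>A SNVs per tumour, fewer by construction. Without chromosomes 1 and 12 the differences in transition share, median read share and missense to synonymous ratio were 1.32, 1.70 and -0.0324, none past 0.05. Without 1 tumour at a time, the gap in shared calls ran from 1249 to 1734 (adjusted p 0.0168 to 0.0867), in transition share from -0.124 to 0.0129 and in coding-strand share from -1.79 to 7.01. The cause of these shifts was not tested. Apart from single tumours, the other 46 recomputed values kept direction and call. No paired analysis was possible because the replicate numbers only follow accession order. Depth, which is unknown, limits which low read shares could be called.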
